A study of Mus musculus with 44 samples.

Results

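The genes described here are 10 mouse genes that the transcription factor NF-kB is known to switch on, several of which hold NF-kB back in return. They are Nfkbia, Nfkbie, Nfkbiz, Tnfaip3, Zfp36, Nfkb2, Relb, Birc3, Ier3 and Icam1. They were chosen by name, out of 18193 genes on the array, and are measured by 20 probe sets that each carry exactly 1 of these symbols. A gene is represented by its probe set of highest mean over the 44 arrays, and its other probe sets serve as a check. All 10 genes had a probe set, and no filter on low values was applied.

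Each array holds RNA of 1 organ (liver, spleen or marrow) of B6C3F1 mice, a first-generation cross of inbred strains for which the labels name no added allele. The mice received 2-butoxyethanol (2BE), a glycol ether solvent whose metabolite butoxyacetic acid breaks open rodent red blood cells, or the vehicle alone. Liver was sampled at 4 h (3 vehicle, 4 2BE) and at 7 d (4 vehicle, 5 2BE). Spleen was sampled at 4 h with 4 arrays an arm and at 7 d with 5 an arm, and marrow at 7 d alone, also with 5 an arm. The titles of the samples give 2BE and vehicle, which set the groups used here, but a second label describes the 2BE samples as reduced oxygen. Dose, route, age and sex are not given in the sources used here, and the labels do not say whether replicates were separate animals, so p-values measure only the spread between these arrays.

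NF-kB is a family of paired subunits that inhibitor proteins of the IkB family keep in the cytoplasm. Receptors for cytokines and microbial products activate a kinase complex that marks the inhibitor for destruction, so the subunits enter the nucleus and bind short DNA elements known as kappaB sites. Among the genes they induce are the inhibitors themselves, enzymes that dismantle the receptor signal, proteins that destroy inflammatory mRNAs, further subunits, survival factors and adhesion molecules. In liver these genes are known to respond to cytokines and injury, while in spleen and marrow lymphocytes and myeloid cells express many of them constantly.

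In vehicle arrays, liver had the hepatocyte gene Alb at the top of all probe sets, spleen had the B-cell gene Cd79a at percentile 97.97 at 4 h and 99.35 at 7 d, and marrow had the neutrophil gene S100a8 at percentile 99.98. S100a8 was also high in spleen, at percentile 99.75 at 4 h and 98.91 at 7 d, and Cd79a in marrow, at 96.88. Median intensities over all probe sets were 41.2 to 42.5 in liver at 4 h, 50.1 to 52.3 in liver at 7 d and 109 to 112 in spleen at 7 d. Those of spleen at 4 h (87 to 89.2) lay within those of marrow (86.2 to 89.6). Tissues and times may therefore have been normalized apart, though the medians do not separate spleen at 4 h from marrow. Intensities were compared only within a tissue and time. A vehicle spleen array at 4 h, replicate 3, stood apart in its cell markers, with a summed intensity of 10178 over 5 B-cell genes against 17500 to 22410 in the other vehicle arrays. Its sum over 9 neutrophil genes was 95800 against 20181 to 40283, and it was the lowest vehicle array for 8 of the 10 genes. Results for spleen at 4 h that change in call without it are given both ways.

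Promoter sequence was looked at because 5 of the genes moved together at 4 h. RefSeq windows on build GRCm38.p6, from 250 bases before to 50 bases after a transcript's start, were found for 8 of the 10 genes, while Relb and Nfkbiz are named only. The kappaB consensus was searched on both strands, and it occurred in the windows of 5 of the 8 genes: Nfkbia, Nfkbie, Tnfaip3, Nfkb2 and Ier3. The windows of Zfp36, Birc3 and Icam1 held none, though Zfp36 and Icam1 rose in liver at 4 h. Over all genes with windows of this length, 5.14% held the consensus. The 10 genes were chosen as known NF-kB targets, so a higher share among them is no result about the rise at 4 h. Each stretch printed here runs from 20 bases before the match furthest upstream to 20 bases after the last, or to the transcript's start. It reads 5′ to 3′ along the gene, with the kappaB matches of either strand in capitals. They are shown because 3 of these genes rose at 4 h in liver and spleen and the other 2 were not called there.

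Nfkbia, chr12:55492648-55492696, minus strand: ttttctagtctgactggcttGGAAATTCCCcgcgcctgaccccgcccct
Ier3, chr17:35821601-35821650, plus strand: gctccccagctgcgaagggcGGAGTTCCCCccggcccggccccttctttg
Tnfaip3, chr10:19015411-19015555, minus strand: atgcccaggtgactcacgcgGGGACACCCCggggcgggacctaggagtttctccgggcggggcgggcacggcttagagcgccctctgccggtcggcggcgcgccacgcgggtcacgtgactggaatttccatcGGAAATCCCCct
Nfkbie, chr17:45555574-45555623, plus strand: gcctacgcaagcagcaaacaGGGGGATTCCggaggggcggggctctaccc
Nfkb2, chr19:46304678-46304736, plus strand: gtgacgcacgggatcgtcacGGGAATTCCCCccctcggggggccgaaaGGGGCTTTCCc

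The Nfkbia match ended 20 bases before the start, and Tnfaip3 held 2 matches in the stretch shown. The Nfkb2 stretch held 4 matches over both strands, 3 of which overlap each other, and other start sites of Nfkb2 have matches of their own. A second pattern, TGANTCA, is wider than the AP-1 consensus TGA(C/G)TCA, since its middle base may be any. It was found in windows of Tnfaip3, Nfkbie and Nfkb2, against 8.97% of all genes, and overlapped no kappaB match. The Nfkb2 match, TGAATCA, lies outside the AP-1 consensus, and the share over all genes is that of the wider pattern. The CArG box, the site of serum response factor, was found in the window of Zfp36 alone among the 8, against 1.81% of all genes. A match is a description of these letters, and the arrays hold no measure of binding.

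In liver at 4 h, 6 of the 10 genes rose with 2BE: Nfkbia, Nfkbiz, Tnfaip3, Zfp36, Ier3 and Icam1. A gene is called risen or fallen where the limma fit over all genes gave a Benjamini-Hochberg adjusted p under 0.05, which 4.51% of all genes passed in this comparison, 3.24% as higher and 1.27% as lower. The median log2 fold change of the 10 genes was 0.77, against -0.017 over all genes. All 6 that rose had every 2BE array above every vehicle array, as did 6.60% of all genes. Nfkbie, Nfkb2, Relb and Birc3 stood between -0.12 and 0.12 and were called in no liver comparison. With the replicate number as a block, which paired the liver arrays at 4 h, the same 6 genes were called. The count over all genes went from 821 to 471 with the block. Fitted on the liver arrays at 4 h alone, Ier3 (adjusted p = 0.0672) and Icam1 (0.0700) were no longer called.

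In spleen at 4 h, 5 genes rose, the same as in liver except Icam1, and 5.16% of all genes were called, 3.31% as higher and 1.85% as lower. The median over the 10 genes was 0.38, against -0.032 over all genes. In 4 of the 5 no 2BE array overlapped a vehicle array, while Zfp36 overlapped, and 4.78% of all genes lay apart in that direction. Without vehicle replicate 3, 4 of these genes were called, and 1027 genes in place of 938 over the array. The log2 fold changes without it were 0.40 for Nfkbia, which was no longer called (adjusted p = 0.102), 0.96 for Nfkbiz, 1.28 for Tnfaip3, 0.77 for Zfp36 and 2.38 for Ier3. The other 5 genes, not called with it either, lay between -0.21 for Nfkbie and 0.073 for Birc3.

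At 7 d only Icam1 rose in liver, where 0.748% of all genes were called, 0.506% as higher and 0.242% as lower. Its 2BE arrays were all above vehicle, as were those of 3.05% of all genes. The median of the 10 genes was 0.17, against -0.0013 over all genes. Bone marrow at 7 d had 5 of the 10 genes lower, namely Nfkbie, Tnfaip3, Zfp36, Nfkb2 and Relb, with a median of -0.33 against 0.0067. In marrow 20.1% of all genes were called, 10.7% as lower and 9.40% as higher. Nfkbie, Tnfaip3 and Relb had every 2BE array below every vehicle array, as did 8.45% of all genes.

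Spleen at 7 d had 8 of the 10 genes lower, all but Nfkb2 and Ier3, with a median of -1.08 against 0.051 over all genes. The 2BE spleen at 7 d differed from vehicle in most of what was measured: 64.4% of all genes were called, 32.0% as lower and 32.4% as higher. The share of the 10 genes called in either direction is thus near that of all genes, while 8 of 8 calls were in the same direction. The 8 lower genes had every 2BE array below every vehicle array, as did 26.7% of all genes. Bulk tissue cannot tell fewer cells of a type apart from less RNA per cell.

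**Figure D1:**
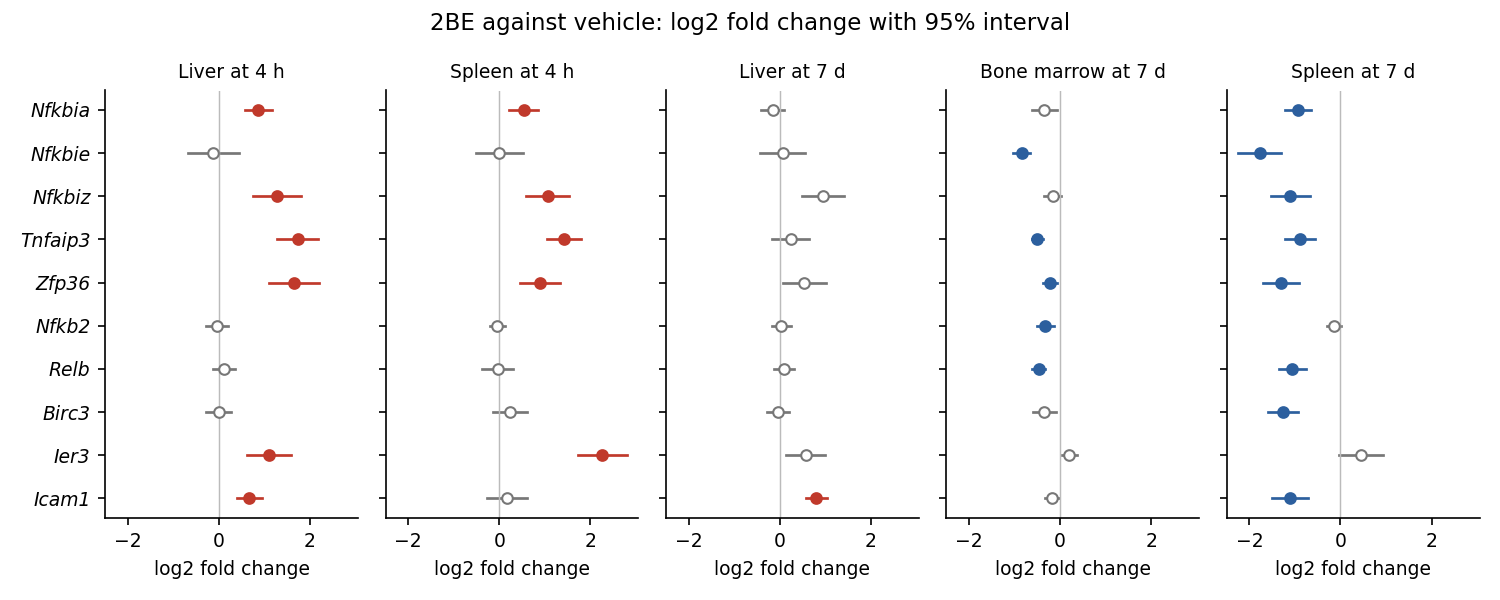
The log2 fold change of 2BE against vehicle (horizontal axis, log2 units, with its 95% interval) is drawn for each of the 10 genes in the 5 tissue and time sets; filled red points are higher and filled blue points lower at adjusted p under 0.05, and open points were not called. Points of Nfkbia, Nfkbiz, Tnfaip3, Zfp36 and Ier3 lie to the right at 4 h in both tissues, and 8 genes lie to the left in spleen at 7 d.

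Markers of cell types moved along with the falls at 7 d. In spleen all 5 B-cell genes measured fell, with a median log2 fold change of -1.63, and their summed intensity ranged from 28357 to 33194 in vehicle and from 5624 to 14660 in 2BE arrays. Of 6 T-cell genes 5 fell and 1 rose, all 4 NK-cell genes fell, all 7 endothelial genes fell (median -0.93), and of 9 macrophage and monocyte genes 5 fell and 1 rose. All 6 erythroid genes rose (median 2.79), with sums of 7270 to 16028 in vehicle and 46254 to 57612 in 2BE arrays. Pancreatic acinar genes had 3 of 5 higher, with sums of 834 to 907 in vehicle and 1479 to 1735 in 2BE arrays, and hepatocyte genes 3 of 5 higher. Adipocyte genes had 2 of 3 lower, with sums in vehicle of 344, 7661, 459, 2437 and 1961 and in 2BE arrays of 325 to 412, so that vehicle replicate 2 stood far above the rest. Of the 9 neutrophil genes 0 were called in spleen at 7 d (median -0.098).

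The marrow showed part of the same picture. All 5 B-cell genes fell there (median -1.67), from sums of 6476 to 8161 in vehicle to 1866 to 3170 in 2BE arrays. Among T-cell genes 1 of 6 fell, among macrophage and monocyte genes 1 of 9, and 4 of 6 erythroid genes rose (median 0.40). In the same arrays 2 of 9 neutrophil genes, 2 of 7 endothelial genes, 1 of 4 NK-cell genes and 1 of 3 adipocyte genes fell, 1 of 5 acinar genes rose and 0 of 5 hepatocyte genes were called. The acinar sums were 1071 to 1178 in vehicle and 1208 to 1275 in 2BE marrow. The part of any of these markers in the lower NF-kB genes was not tested.

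At 4 h and in liver fewer markers moved. Spleen at 4 h had 0 of 5 B-cell genes called (median -0.36), 2 of 4 NK-cell genes lower (Ncr1 at -1.44, Gzma at -0.97), and 0 of 9 neutrophil genes called. Its macrophage list had 1 of 9 genes lower, its endothelial list 1 of 7 higher and its adipocyte list 1 of 3 higher (Fabp4 at 2.81). Without vehicle replicate 3 all 4 NK-cell genes and 1 of 6 T-cell genes were lower there, the median of the B-cell genes was -0.56 and that of the neutrophil genes 0.12 in place of -0.45, and the endothelial and adipocyte calls were lost.

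Liver at 4 h had 1 of 7 endothelial genes lower (Kdr at -0.59, overlapping arms), 1 of 3 adipocyte genes higher (Fabp4 at 1.49) and 1 of 5 hepatocyte genes higher (Tat at 1.60). Its adipocyte sums were 230 to 352 in vehicle and 486 to 826 in 2BE arrays, and the part of any of these lists in the rise of Icam1 was not tested. None of the other 7 lists had a gene called in liver at 4 h, but vehicle replicate 3 had a neutrophil sum of 1920 against 417 to 503 in the other vehicle arrays. Liver at 7 d had 2 of 9 macrophage and monocyte genes higher, the scavenger receptor gene Marco at 2.19 and Cd68 at 0.80. The sum over those 9 genes was 4264 to 4980 in vehicle and 5662 to 8229 in 2BE livers at 7 d, and its part in the rise of Icam1 was not tested. Of 5 hepatocyte genes 1 rose in liver at 7 d (Tat at 0.89). Endothelial genes, another place where Icam1 is known to be made, had 0 of 7 called in liver at 7 d.

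Nfkbia encodes IkB alpha, the inhibitor that binds the subunits and is remade quickly after each round of activation. Its intensity in liver at 4 h was 1983, 2295 and 2202 in vehicle and 4805, 3672, 3210 and 4262 in 2BE arrays. Spleen at 4 h gave 7107, 8670, 5405 and 7963 in vehicle and 12085, 11076, 9745 and 8936 in 2BE arrays. Every 2BE array was above every vehicle array in both tissues, though the lowest 2BE spleen came close to the highest vehicle spleen. The gene rose 1.83-fold in liver (log2 fold change 0.87 ± 0.14 SE, adjusted p = 0.00194) and 1.45-fold in spleen (0.53 ± 0.15, adjusted p = 0.0418). The spleen call was also lost without vehicle replicate 1 (adjusted p = 0.0833) or 2BE replicate 1 (0.127), 2 (0.0908) or 3 (0.0657), or when only the spleen arrays at 4 h were fitted (0.110).

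At 7 d Nfkbia went the other way in spleen. Vehicle arrays read 10317, 9892, 11298, 9994 and 9427, and 2BE arrays 4908, 4303, 6222, 4764 and 6841, all below the lowest vehicle value. The fall was 0.93 ± 0.13 on the log2 scale (adjusted p = 7.40e-06). Marrow arrays overlapped, at 5094 to 6367 in vehicle and 3327 to 5771 in 2BE arrays (-0.35 ± 0.13, adjusted p = 0.0703). That value passed without 2BE replicate 2 (adjusted p = 0.0115) or replicate 5 (0.0453). Liver arrays at 7 d overlapped as well, at 3060 to 4276 and 2573 to 3474 (-0.16 ± 0.12, adjusted p = 0.707).

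Nfkbie encodes IkB epsilon, a related inhibitor that acts more slowly and is rich in B cells. It did not take part in the 4 h rise, with liver arrays at 43.3 to 83.3 in vehicle and 33.2 to 62.6 with 2BE (-0.12 ± 0.27, adjusted p = 0.885). Spleen arrays at 4 h read 645 to 1374 in vehicle and 803 to 1443 with 2BE (0.0058 ± 0.25, adjusted p = 0.993). The intervals, -0.68 to 0.45 in liver and -0.52 to 0.53 in spleen, leave room for changes of moderate size. At 7 d it had the lowest log2 fold change among the 10 genes both in marrow and in spleen.

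Marrow vehicle arrays gave Nfkbie intensities of 473, 372, 435, 441 and 389, and 2BE arrays 278, 217, 204, 248 and 232. Spleen vehicle arrays gave 1968, 1694, 1776, 1691 and 1849, and 2BE arrays 535, 290, 683, 507 and 726. In neither tissue did the arms meet. The falls were 0.84 ± 0.086 in marrow (adjusted p = 2.46e-05) and 1.78 ± 0.22 in spleen (adjusted p = 1.88e-06), which is 0.56-fold and 0.29-fold of vehicle. Its level in liver at 7 d, 49.8 to 67.7 in vehicle and 37.3 to 87.4 with 2BE, did not pass (0.068 ± 0.23, adjusted p = 0.959).

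Nfkbiz encodes IkB zeta, a nuclear IkB protein that works as a cofactor for a second wave of target genes. Liver arrays at 4 h read 227, 220 and 240 in vehicle and 721, 406, 513 and 639 with 2BE. Spleen arrays at 4 h read 596, 753, 509 and 687 in vehicle and 2051, 1355, 1119 and 971 with 2BE. The arms did not overlap in either tissue. Nfkbiz rose 2.43-fold in liver (1.28 ± 0.25, adjusted p = 0.00701) and 2.09-fold in spleen (1.06 ± 0.22, adjusted p = 0.00712). Of its 3 probe sets, the 1 with the highest variance over all arrays did not pass in spleen at 4 h (0.26, adjusted p = 0.572), while all 3 passed in liver.

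Nfkbiz at 7 d lay on opposite sides of vehicle in liver and spleen. Livers read 172, 140, 120 and 290 in vehicle and 248, 358, 305, 411 and 368 with 2BE, so that 1 vehicle array reached into the range of the 2BE arrays. The difference of 0.96 ± 0.22 missed the threshold narrowly (adjusted p = 0.0532). It passed without vehicle replicate 4, the array of 290 (1.22, adjusted p = 0.0102), or without 2BE replicate 1 (1.07, adjusted p = 0.0270). Spleens read 761, 575, 574, 605 and 723 in vehicle and 252, 200, 406, 286 and 410 with 2BE, a fall of 1.10 ± 0.20 (adjusted p = 1.13e-04). Marrow read 229 to 309 and 213 to 267 and was not called (-0.16 ± 0.087, adjusted p = 0.231), although both other probe sets of the gene were lower there, at -0.26 and -0.36.

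Tnfaip3 encodes a ubiquitin-editing enzyme that shuts down signals from cytokine receptors to NF-kB. Intensities in liver at 4 h were 45.0, 58.6 and 36.2 in vehicle and 255, 105, 134 and 157 with 2BE, with 2BE replicate 1 well above the others. Spleen at 4 h had 583, 719, 423 and 608 in vehicle and 2077, 1765, 1242 and 1229 with 2BE. The lowest 2BE array exceeded the highest vehicle array by a wide margin in both. The rise was 3.32-fold in liver (1.73 ± 0.22, adjusted p = 4.33e-04) and 2.68-fold in spleen (1.42 ± 0.18, adjusted p = 3.82e-05). The other probe set of Tnfaip3 gave 0.49 in liver, which did not pass (adjusted p = 0.0528), and 0.84 in spleen, which did.

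At 7 d the arms for Tnfaip3 in liver overlapped, at 34.9 to 48.3 in vehicle and 46.4 to 50.4 with 2BE (0.24 ± 0.19, adjusted p = 0.71). Marrow arrays read 412, 379, 387, 387 and 355 in vehicle and 293, 272, 241, 276 and 281 with 2BE. Spleen arrays read 961, 1026, 1168, 900 and 836 in vehicle and 453, 459, 593, 490 and 645 with 2BE. Each 2BE array of both tissues lay under all vehicle arrays. The falls were 0.50 ± 0.061 in marrow (adjusted p = 8.57e-05) and 0.89 ± 0.16 in spleen (adjusted p = 8.48e-05).

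Zfp36 encodes tristetraprolin, which binds AU-rich elements of cytokine mRNAs and has them degraded. Livers at 4 h read 579, 734 and 548 in vehicle and 1829, 2307, 1639 and 2011 with 2BE, with a wide gap between the arms. Spleens at 4 h read 1137, 1484, 1016 and 1770 in vehicle and 3490, 2831, 2187 and 1680 with 2BE, where the lowest 2BE array fell below the highest vehicle array. The rise was 3.14-fold in liver (1.65 ± 0.26, adjusted p = 0.00169) and 1.86-fold in spleen (0.89 ± 0.21, adjusted p = 0.0168). The spleen call was lost without vehicle replicate 1 (adjusted p = 0.0536), without 2BE replicate 1 (0.0639) or 2 (0.0501), and when only the spleen arrays at 4 h were fitted (0.0952).

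Zfp36 fell at 7 d in spleen, from 1818, 1680, 1783, 1614 and 1706 in vehicle to 571, 573, 803, 602 and 1017 with 2BE. The fall was 1.31 ± 0.19 (adjusted p = 9.79e-06), 0.40-fold of vehicle, with no overlap. In marrow, arrays read 825 to 1015 in vehicle and 733 to 875 with 2BE, a fall of 0.22 ± 0.071 (adjusted p = 0.0400) with overlapping arms. That marrow call did not hold without vehicle replicate 1, 3 or 4 or 2BE replicate 1, 3 or 5, with adjusted p from 0.0649 to 0.101. Livers at 7 d read 638 to 1556 in vehicle and 1106 to 2172 with 2BE (0.54 ± 0.22, adjusted p = 0.359).

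**Figure D2:**
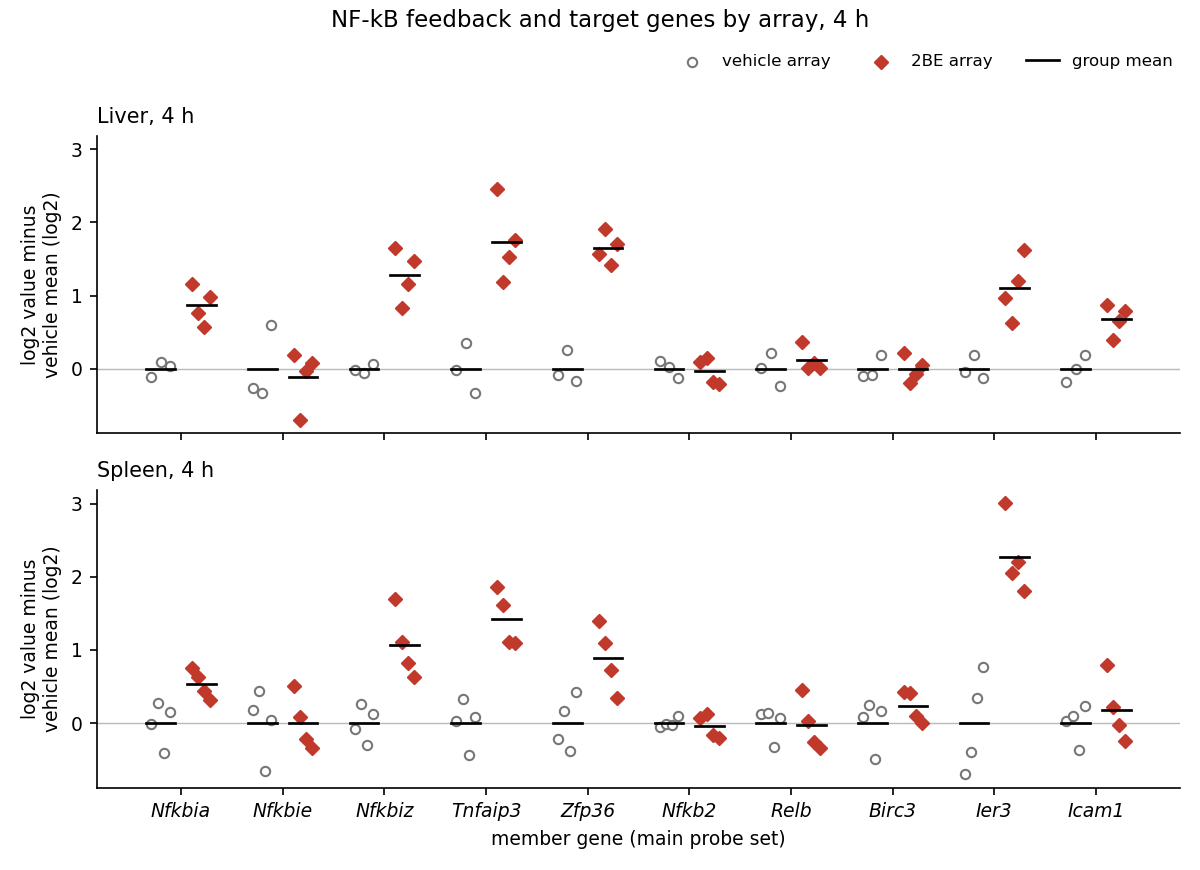
Each point is 1 array at 4 h, placed by its log2 value minus the vehicle mean of the same gene (vertical axis, log2 units), with open circles for vehicle, filled diamonds for 2BE and a bar for the group mean; the upper panel is liver and the lower panel spleen. Diamonds of Tnfaip3 and Zfp36 in liver and of Ier3 and Tnfaip3 in spleen stand clear of the circles, while those of Nfkbie, Nfkb2, Relb and Birc3 mix with them.

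Nfkb2 and Relb encode subunits of the slower, non-canonical branch of NF-kB, which is driven by receptors important in lymphoid organs. Relb in liver lay at low intensities, 20.3 to 28.2 in vehicle and 24.3 to 31.2 with 2BE at 4 h, where values on the log2(value + 1) scale slightly understate a change. It was not called in liver at 4 h (0.12 ± 0.11, adjusted p = 0.659) or at 7 d (0.096 ± 0.099, adjusted p = 0.799). Spleens at 4 h read 361 to 501 in vehicle and 360 to 622 with 2BE (-0.030 ± 0.16, adjusted p = 0.944). Neither tissue thus showed a change of Relb at 4 h beyond the spread of the arrays.

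Relb fell at 7 d in both lymphoid tissues. Marrow arrays read 157, 143, 137, 145 and 131 in vehicle and 100, 117, 99.9, 92.9 and 104 with 2BE. Spleen arrays read 794, 648, 665, 676 and 729.5 in vehicle and 318, 257, 365, 336 and 429 with 2BE. All 2BE arrays were below all vehicle arrays in each. The falls were 0.47 ± 0.067 in marrow (adjusted p = 2.58e-04) and 1.06 ± 0.14 in spleen (adjusted p = 4.95e-06).

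On its main probe set, the largest change of Nfkb2 over the 5 sets was -0.32, in marrow. The largest change of each other gene was greater in size. The probe sets of Nfkb2 disagreed. The main probe set, of a class that can also bind related transcripts, read 395, 393, 389, 359 and 438 in vehicle spleens at 7 d and 330, 367, 364, 374 and 355 with 2BE (-0.14 ± 0.072, adjusted p = 0.0955). The other probe set of the gene fell by 0.95 ± 0.10 in the same arrays (adjusted p = 3.75e-07, over all probe sets). Whether Nfkb2 was lower in spleen at 7 d thus depends on the probe set. In marrow both passed, at -0.32 ± 0.083 for the main probe set (adjusted p = 0.0140, overlapping arms) and -0.27 for the other. Its log2 fold changes in liver and in spleen at 4 h were between -0.045 and 0.031 on the main probe set and were not called.

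Birc3 encodes an inhibitor of apoptosis that also carries ubiquitin signals from tumour necrosis factor receptors. It was not called at 4 h, with liver arrays at 191 to 234 in vehicle and 179 to 238 with 2BE (-0.0029 ± 0.13, adjusted p = 0.995). Spleen arrays at 4 h had 1948 to 3241 in vehicle and 2726 to 3671 with 2BE (0.23 ± 0.18, adjusted p = 0.518). Spleen arrays at 7 d read 3523, 3177, 3742, 3377 and 3633 in vehicle and 1164, 1214, 1606, 1335 and 2193 with 2BE. That fall, with the arms apart, was 1.25 ± 0.16 (adjusted p = 1.89e-06), 0.42-fold of vehicle. Marrow read 997 to 1225 and 690 to 1194 (-0.34 ± 0.12, adjusted p = 0.0619); it passed without 2BE replicate 2 (adjusted p = 0.00716) or 5 (0.0464), and on its other probe set (-0.40, adjusted p = 0.0112). Liver at 7 d did not pass, at 408 to 536 and 352 to 523 (-0.034 ± 0.12, adjusted p = 0.957).

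Ier3 encodes a short-lived stress-response protein that affects cell survival and is induced early. Spleens at 4 h read 139, 172, 287 and 386 in vehicle and 1830, 946, 1053 and 799 with 2BE, and livers at 4 h 52.7, 62.1 and 49.9 in vehicle and 108, 84.7, 126 and 171 with 2BE. All 2BE arrays were above all vehicle arrays in both tissues, and in spleen the rise was the highest of the 10 genes. It was 4.82-fold in spleen (2.27 ± 0.26, adjusted p = 1.18e-05) and 2.15-fold in liver (1.10 ± 0.23, adjusted p = 0.0120). The liver call was lost when only the liver arrays at 4 h were fitted (adjusted p = 0.0672).

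Ier3 was the only gene of the 10 with a positive log2 fold change in marrow and in spleen at 7 d. Spleen arrays read 148, 144, 139, 174 and 154 in vehicle and 201, 262, 199, 190 and 195 with 2BE, apart but not called in the fit that pools all spleen arrays (0.46 ± 0.23, adjusted p = 0.0883). Fitted on the spleen arrays at 7 d alone it passed (adjusted p = 8.94e-04). Marrow arrays read 177 to 207 in vehicle and 197 to 266 with 2BE (0.21 ± 0.075, adjusted p = 0.0686). The marrow value passed without 2BE replicate 5 (0.24, adjusted p = 0.0392). Liver at 7 d read 43.0 to 63.2 and 56.6 to 122 (0.57 ± 0.20, adjusted p = 0.261).

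Icam1 encodes the adhesion molecule by which leukocytes stick to endothelium and other activated cells. It was the 1 gene called higher in liver at both times. Livers at 4 h read 160, 181 and 207 in vehicle and 333, 238, 285 and 314 with 2BE, and at 7 d 126, 97.5, 88.3 and 108 in vehicle and 204, 177, 174, 192 and 167 with 2BE. No arm overlapped the other at either time. The rise was 1.59-fold at 4 h (0.67 ± 0.13, adjusted p = 0.00616) and 1.75-fold at 7 d (0.81 ± 0.11, adjusted p = 0.00452). At 4 h the liver call was lost when only the liver arrays of that time were fitted (adjusted p = 0.0700).

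Icam1 in spleen was not called at 4 h, at 626 to 948 in vehicle and 679 to 1398 with 2BE (0.18 ± 0.21, adjusted p = 0.695). At 7 d it fell there, from 1093, 1030, 1018, 996 and 1084 in vehicle to 458, 301, 585, 508 and 644 with 2BE. The fall was 1.11 ± 0.19 (adjusted p = 5.01e-05), with the arms apart. Marrow arrays overlapped, at 195 to 244 and 182 to 227 (-0.17 ± 0.073, adjusted p = 0.122), and passed only without 2BE replicate 5 (-0.23, adjusted p = 0.0255).

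**Figure D3:**
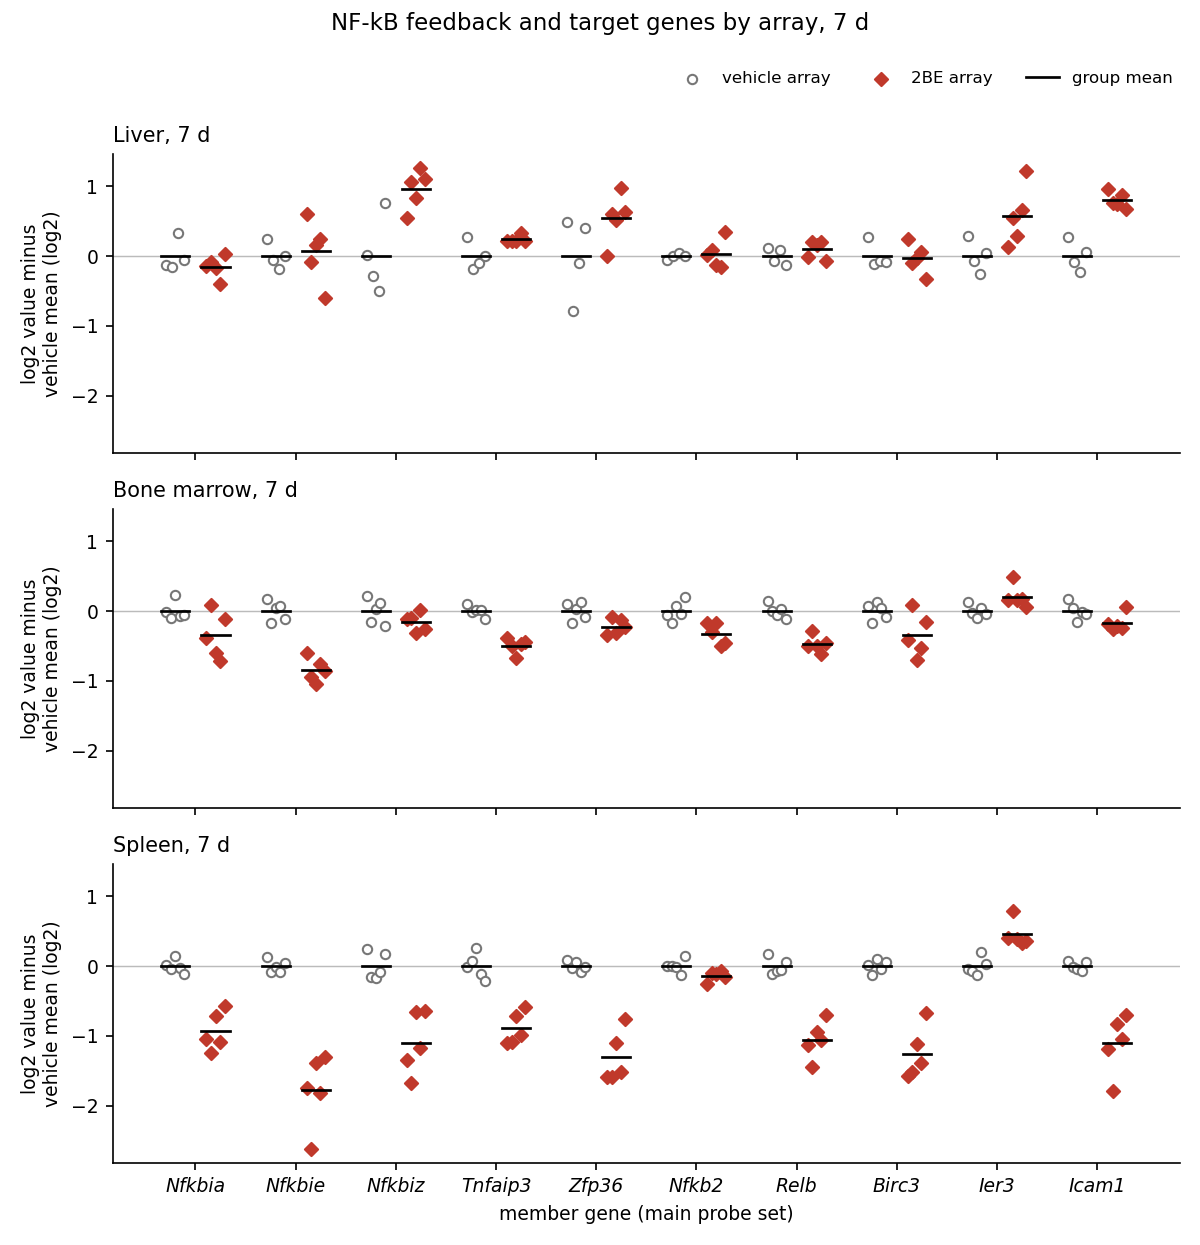
Each point is 1 array at 7 d, placed by its log2 value minus the vehicle mean of the same gene (vertical axis, log2 units), with open circles for vehicle, filled diamonds for 2BE and a bar for the group mean, for liver, bone marrow and spleen from top to bottom. Diamonds of Icam1 stand above the circles in liver, those of Nfkbie, Tnfaip3 and Relb stand below in marrow, and 8 genes stand below in spleen.

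The change of the response with time was tested as a difference of 2 differences, which cancels a constant shift between separately normalized sets but not a difference in how each set's normalization scales fold changes. In spleen the effect of 2BE was lower at 7 d than at 4 h for 9 of the 10 genes on their main probe sets, all but Nfkb2. Over all genes 51.3% differed, 25.6% as lower and 25.6% as higher. The probe set of Nfkb2 with the highest variance was lower too (-0.88, adjusted p = 1.91e-04). The median difference of the 10 genes was -1.64, against 0.077 over all genes. The differences ran from -1.03 ± 0.22 for Relb to -2.32 ± 0.24 for Tnfaip3, with Zfp36 at -2.20 ± 0.29 and Nfkbiz at -2.17 ± 0.30. For Nfkbia, Nfkbiz, Tnfaip3 and Zfp36 this was a turn from a rise to a fall, and for Ier3 a drop from 2.27 to 0.46. For Nfkbie, Relb, Birc3 and Icam1 it was a fall at 7 d with no call at 4 h. Without vehicle replicate 3 of 4 h the same 9 genes were called, from -0.92 for Relb to -2.17 for Tnfaip3.

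In liver the same difference passed for 2 genes, Nfkbia at -1.03 ± 0.18 (adjusted p = 0.0338) and Tnfaip3 at -1.49 ± 0.29 (adjusted p = 0.0394), where 0.269% of all genes differed, 0.170% as lower and 0.0989% as higher. Zfp36 stood at -1.11 ± 0.34 and Ier3 at -0.54 ± 0.31, and Icam1 at 0.13 with an interval of -0.23 to 0.49. Both liver calls were lost with the replicate number as a block, which pairs the arrays, with adjusted p of 0.0945 for Nfkbia and 0.130 for Tnfaip3. Nfkbia also lost it without 1 of 6 arrays: vehicle replicate 1 or 2BE replicate 4 of 4 h, or vehicle replicate 3 or 4 or 2BE replicate 3 or 4 of 7 d (adjusted p from 0.0571 to 0.0840). Tnfaip3 lost it without any 1 of the 7 d arrays, and without vehicle replicate 1 or 3 or 2BE replicate 3 or 4 of 4 h (adjusted p from 0.0528 to 0.0977).

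Tissues were compared in the same way. At 4 h 0 of the 10 genes differed between spleen and liver in their response by the limma fit, where 1.78% of all genes differed (0.934% as higher, 0.841% as lower), while 2 did at an unadjusted p under 0.05. Those were Ier3, higher in spleen by 1.16 ± 0.45 (adjusted p = 0.273), and Zfp36, lower by 0.75 ± 0.31 (adjusted p = 0.308). Icam1, called only in liver at 4 h, differed by -0.49 with an interval of -1.09 to 0.11, so its response is not shown to differ between the tissues at that time. Without the spleen's vehicle replicate 3, 0 of the 10 genes were called either, with Ier3 at 1.28 and Zfp36 at -0.88.

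At 7 d the effect in spleen was lower than that in liver for 8 genes on their main probe sets, all but Nfkb2 and Ier3. Over all genes 57.0% differed, 29.6% as lower and 27.4% as higher. The probe set of Nfkb2 with the highest variance was lower too (-1.08, adjusted p = 6.56e-10). For marrow minus spleen that probe set gave 0.68 (adjusted p = 2.84e-06). Nfkbiz differed by -2.06 ± 0.27 and Icam1 by -1.91 ± 0.18, the widest gaps of the 10. The effect in marrow exceeded that in spleen for the same 8 genes, from 0.40 ± 0.13 for Tnfaip3 to 1.08 ± 0.25 for Zfp36, where 44.9% of all genes differed, 25.0% as higher and 19.9% as lower. The fall in marrow was thus smaller than that in spleen for the genes that fell in both. These comparisons use the same spleen arrays.

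**Figure D4:**
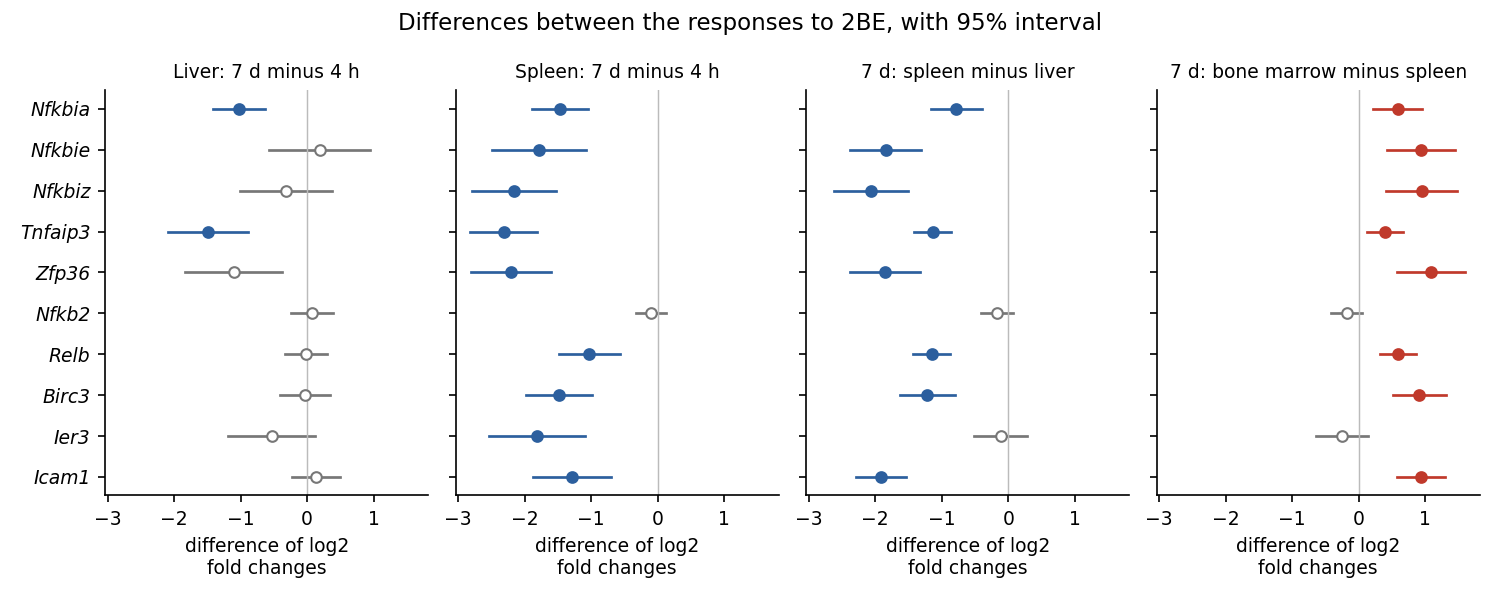
Points are differences between effects of 2BE (horizontal axis, log2 units, with the 95% interval) for the 10 genes: 7 d minus 4 h in liver and in spleen, and at 7 d spleen minus liver and bone marrow minus spleen; filled points passed at adjusted p under 0.05, red for higher and blue for lower. In spleen 9 genes lie left of 0 for time, and Nfkb2 and Ier3 are open in both tissue comparisons.

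The other probe sets of the genes mostly moved as the main ones did. Nfkbia has 4 more, which in liver at 4 h gave log2 fold changes of 0.33 to 1.17, with all but the lowest called, and in spleen at 4 h 0.54 to 0.93, all called. In spleen at 7 d they ran from -0.22, not called, to -1.33. The probe set of Nfkbia that moved least was the same in liver at 4 h and spleen at 7 d. The second probe set of Nfkbie fell in marrow (-0.76) and spleen (-1.28) at 7 d, and that of Birc3 fell in spleen at 7 d (-1.12). Zfp36, Relb, Ier3 and Icam1 have no second probe set in this check.

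**Figure D5:**
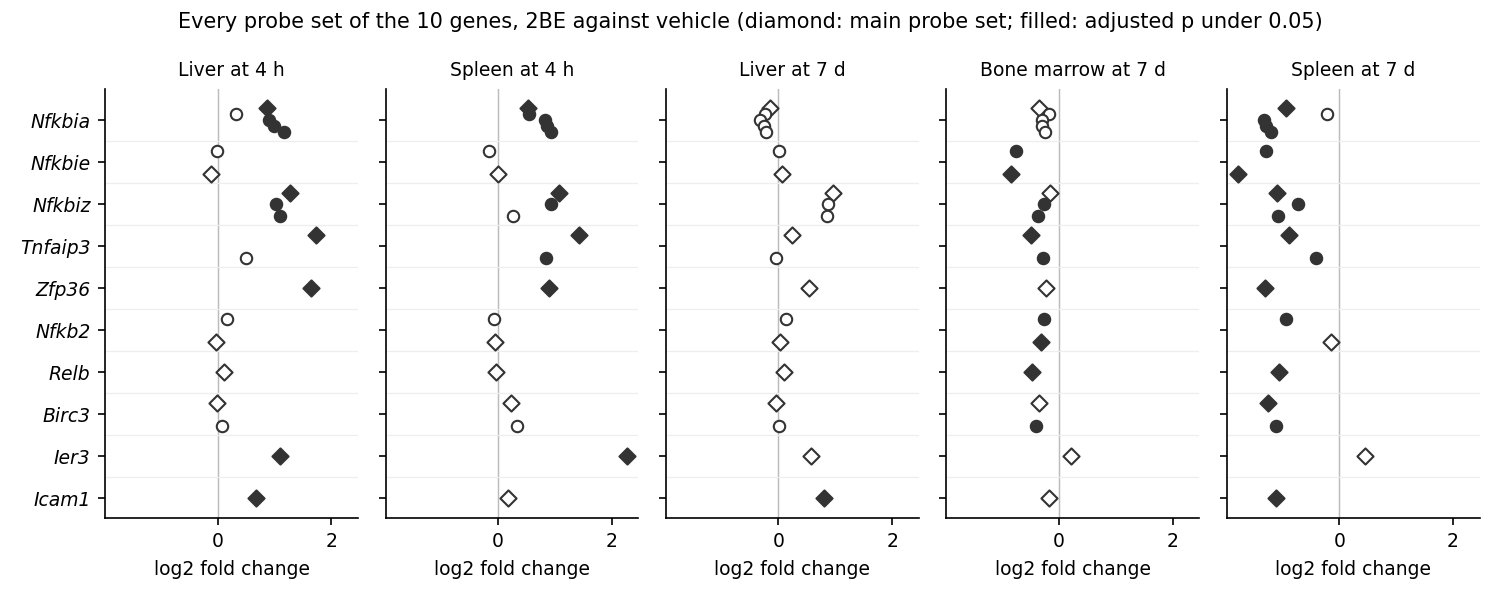
All 20 probe sets of the 10 genes are shown with their log2 fold change of 2BE against vehicle (horizontal axis, log2 units) in the 5 sets; a diamond marks the main probe set, a circle another one, and a filled symbol an adjusted p under 0.05 over all probe sets. Nfkb2 in spleen at 7 d shows an open diamond at -0.14 and a filled circle at -0.95, and the marrow value of Zfp36, called over genes, is open here (adjusted p = 0.0533).

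Some arrays stood high or low in their group for most of the 10 genes. These ranks are over all 10 genes, called in the set or not, so they do not describe the response to 2BE alone. In spleen at 4 h, 2BE replicate 1 was the highest of its group for 9 of the 10 genes, and replicate 4 the lowest for all 10. Replicate 4 also had the lowest B-cell sum of the 2BE arrays, at 10038 against 11428 to 15257. In spleen at 7 d, 2BE replicate 5 was the highest of its group for 8 of the 10 genes. These are the 8 genes that fell there, so this array lay nearest to vehicle for them. It also had the highest B-cell sum of the 2BE arrays, at 14660 against 5624 to 10887. The part of the B-cell markers in these ranks was not tested. In liver at 4 h, 2BE replicate 1 was the highest for 7 genes and replicate 2 the lowest for 7.

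Other genes of the pathway were read from lists of subunits, inhibitors, kinases, adaptors, receptors, ligands and targets, of which 83 genes were measured together with the early-response lists. For comparison, the shares of all genes called higher and lower at 4 h were 3.24% and 1.27% in liver, and 3.31% and 1.85% in spleen. At 7 d they were 0.506% and 0.242% in liver, 9.40% and 10.7% in marrow, and 32.4% and 32.0% in spleen. The subunit genes Rel and Rela rose in liver at 4 h, by 0.46 ± 0.11 and 0.36 ± 0.084, and fell in spleen at 7 d, by 0.67 ± 0.13 and 0.55 ± 0.091. Neither was called in spleen at 4 h, in marrow or in liver at 7 d, and Nfkb1 is not analysed here. Of 3 further IkB genes, 2 rose in liver at 4 h: Bcl3, a nuclear cofactor of the family, at 1.04 ± 0.21, and Nfkbib, an inhibitor, at 0.50 ± 0.073. All 3 fell in spleen at 7 d, with Nfkbid at -1.32 and Bcl3 at -0.85, and in spleen at 4 h 0 of 3 were called. Marrow had Nfkbid lower (-0.53) and Bcl3 higher (0.37, overlapping arms).

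Kinases and adaptors between receptor and NF-kB moved little at 4 h. Of 10 kinase genes 1 rose in liver at 4 h (Map3k8, 0.58) and 0 were called in spleen at 4 h. Of 15 adaptor and ubiquitin-editing genes 2 rose in liver at 4 h, the Toll-like receptor adaptor Myd88 (0.62) and the deubiquitinase Cyld (0.40), and 0 were called in spleen. In spleen at 7 d 6 of 10 kinase genes fell, with Ikbke at -1.09 and Ikbkb, a catalytic subunit of the kinase complex, at -1.08. Among the adaptor genes 13 of 15 fell there and 2 rose, with Traf1 at -1.18 and Tnfaip8l2 at -1.04. Liver at 7 d had 1 kinase gene and 1 adaptor gene higher, again Map3k8 (0.62) and Myd88 (0.49). Marrow had 1 of 10 kinase genes higher and 2 lower, with Ikbkb at -0.25, and 2 of 15 adaptor genes lower, Traf6 at -0.34 and Tnip1 at -0.19.

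Of 10 receptor genes 2 rose in liver at 4 h, the interleukin-1 receptor gene Il1r1 (1.18 ± 0.23) and the tumour necrosis factor receptor gene Tnfrsf1b (0.98 ± 0.16). Among 8 ligand genes 0 were called in liver at 4 h, Tnf standing at 0.020 and Il1b at -0.29. Spleen at 4 h had 1 ligand higher, Il1a at 1.07 ± 0.14, with Tnf at -0.092 and Il1b at 0.64 ± 0.35 not called. Its receptor list had 1 gene lower, Cd40 at -0.71 ± 0.18, with overlapping arms. Without vehicle replicate 3 Il1a stood at 1.01 and Cd40 at -0.86, both called, and the ligand Lta (-0.76) and the adaptor Cyld (-0.36) became lower calls. In liver at 7 d Tnfrsf1b was the 1 receptor gene called, again higher (0.80 ± 0.14), and 0 of 8 ligands were called.

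In spleen at 7 d 7 of the 10 receptor genes fell and 1 rose, with the B-cell receptor for a survival factor, Tnfrsf13c, at -1.67 and Cd40 at -1.19. Of the 8 ligands 3 fell and 1 rose, with Ltb, a lymphotoxin chain made by lymphocytes, at -1.55. Marrow at 7 d had 3 receptors lower, Tnfrsf13c at -1.31, Cd40 at -0.48 and Tnfrsf1b at -0.20, and Ltb at -0.57. Tnfrsf13c and Cd40 are known for their use in B cells, whose 5 markers fell in the same arrays. The part of the B-cell markers in these falls was not tested.

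Of 15 other NF-kB target genes, 2 rose in liver at 4 h, the survival gene Bcl2l1 (0.94 ± 0.23) and Cflar (0.39 ± 0.088). The median of the 15 at 4 h was -0.048 in liver and 0.11 in spleen, against -0.017 and -0.032 over all genes. Spleen at 4 h had 3 higher, Ptgs2, the inducible cyclooxygenase (0.68 ± 0.19), Sele, an endothelial adhesion molecule (0.52 ± 0.12), and Sod2 (0.43 ± 0.091). Without vehicle replicate 3 the call of Ptgs2 was lost (0.69, adjusted p = 0.0563), while Tnfaip2 was called higher (0.81) and Irf1 lower (-0.56). Vcam1, the other vascular adhesion molecule on the lists, rose in liver at 7 d (1.99 ± 0.28), where Icam1 also rose, and was not called at 4 h (0.71 ± 0.32). Targets in spleen at 7 d went both ways, with 5 lower and 4 higher, among the latter Tnfaip2 (1.80) and the iron transporter gene Slc11a2 (1.71). The share of targets called there is near the 64.4% of all genes. Marrow had 3 higher and 2 lower, including Tnfaip2 at 0.44 and Cd83 at -0.55.

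Of 4 relatives of Zfp36 in mRNA decay, Zfp36l2 rose at 4 h in liver (0.96 ± 0.17) and in spleen (1.11 ± 0.17), and Rc3h1 rose in liver (0.31). In spleen at 7 d 3 of the 4 fell, including Zfp36l1 (adjusted p = 8.71e-06) and Zc3h12a at -0.86 ± 0.14. Marrow at 7 d had Zfp36l1 and Zfp36l2 lower, at -0.21 and -0.29. In liver at 7 d 0 of the 4 were called.

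Lists of genes that other signals induce early moved at the same time as the NF-kB genes. Of 10 immediate early genes 5 rose in liver at 4 h and 8 in spleen, where Fos stood at 3.20 ± 0.21 and Egr1 at 2.82 ± 0.22. Of 6 genes that glucocorticoids induce, 5 rose in liver at 4 h and 4 in spleen, with Sgk1 at 2.12 ± 0.41 in liver and Mt2 at 2.69 ± 0.42 in spleen. Without vehicle replicate 3 the same 8 immediate early genes were called in spleen, with Fos at 3.24 and Egr1 at 2.65, and 3 glucocorticoid-induced genes, Fkbp5 being lost (adjusted p = 0.103). Several of the 10 genes, among them Zfp36, Ier3 and Nfkbia, are known to answer to those signals too. The part of each signal in the rise at 4 h was not tested. At 7 d 0 of the 10 immediate early and 0 of the 6 glucocorticoid-induced genes were called in liver. In spleen at 7 d 5 immediate early genes fell and 2 rose, with Egr1 at -1.56 and Junb at -1.06. Of the 6 glucocorticoid-induced genes 2 fell and 1 rose there, with Sgk1 at -0.96 and Mt2 at 2.03. Marrow had 2 immediate early genes higher and 1 lower (Egr1, -0.74). Its glucocorticoid-induced list had 1 of 6 genes higher (Mt2 at 0.92) and 1 lower.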

How the data were processed

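RNA of 44 samples was measured on Affymetrix arrays. The deposited values are intensity per probe set on a linear scale, made by the authors with RMA, per the submitters' processing notes; its version and whether the 5 tissue and time sets were normalized together are not given in the sources used here. Intensities were analysed as log2(value + 1). Probe sets with exactly 1 symbol in the platform's annotation (34945 of 45101, with 932 naming several, 9160 none and 64 controls) gave 18193 genes, 1 probe set each by highest mean. limma 3.58.1 in R 4.3.3 was fitted on group means to all arrays of a tissue, or of a time for differences between tissues, with eBayes and Benjamini-Hochberg adjustment over all genes; errors are its SE, tests are two-sided and intervals cover 95%. The number of arrays limits the precision. The fit was tested on simulated data.

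The 10 genes, the lists and the tests were chosen with earlier results of these data known. The rule named all 10 genes, up to 2 genes a pathway list with the largest change among those called with arms apart, and marker genes called; Cd40, Tnf, Il1b and Sod2 at 4 h, Bcl3 and Tnfrsf1b in marrow, and Vcam1 at 4 h were added after their values were seen. Liver arrays at 4 h with the same replicate number in the labels deviated together over all genes (correlations of 0.132 to 0.282 in 3 pairs). A fit that pairs them was run as an alternative. The errors and calls given for liver come from the fit without pairing, unless the block is named. In the other sets some pairs did not deviate together. No arrays were identical. Promoter windows are RefSeq's, on GRCm38.p6. Alternatives tried were fitting the compared groups alone, another offset, a low-value filter, a further quantile normalization, array weights, a trended robust fit, other choices of probe set, the replicate block and leaving out each array. The marker and pathway lists were refitted without vehicle spleen replicate 3 of 4 h, a choice made after seeing the data; genes whose call changed there were also named.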

Additional observations from a re-analysis of the deposited data

Results flagged for a closer look

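Among 90 gene and group combinations of 4 to 5 arrays, 7 had an extreme array far from the rest, measured as its gap to the nearest array over the group's whole range; chance gives about 1 in 20. Nfkbia in vehicle marrow had replicate 3 high at 6367, next to 5384 (gap over range 0.752). Tnfaip3 in 2BE liver at 7 d had replicate 4 at 50.4 next to 46.5 (0.98), a small distance in absolute terms. Relb in vehicle spleen at 4 h had replicate 3 low at 361 next to 479 (0.862), which is the array with high neutrophil and low B-cell sums. Birc3 in vehicle liver at 7 d had replicate 1 high at 536 next to 424 (0.862). Ier3 had replicate 2 high both in 2BE marrow, at 266 next to 213 (0.743), and in 2BE spleen at 7 d, at 262 next to 201 (0.819). Icam1 in 2BE marrow had replicate 5 high at 227 next to 190.3 (0.799).

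Of 50 tested differences between effects of 2BE, 27 passed. For 7 d minus 4 h in liver they were Nfkbia (-1.03) and Tnfaip3 (-1.49). For 7 d minus 4 h in spleen they were Nfkbia (-1.47), Nfkbie (-1.78), Nfkbiz (-2.17), Tnfaip3 (-2.32), Zfp36 (-2.20), Relb (-1.03), Birc3 (-1.49), Ier3 (-1.81) and Icam1 (-1.29). For spleen minus liver at 7 d they were Nfkbia (-0.78), Nfkbie (-1.84), Nfkbiz (-2.06), Tnfaip3 (-1.14), Zfp36 (-1.85), Relb (-1.15), Birc3 (-1.22) and Icam1 (-1.91). For marrow minus spleen at 7 d they were Nfkbia (0.59), Nfkbie (0.94), Nfkbiz (0.94), Tnfaip3 (0.40), Zfp36 (1.08), Relb (0.59), Birc3 (0.91) and Icam1 (0.94).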

How the results depend on the processing

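Over the settings other than leaving out an array, 963 of 997 comparisons with the reported values kept the call. That number includes turns of sign where neither fit was called, such as Nfkb2 in liver at 4 h (-0.036 and 0.16). Of the rest, 11 lost the call, 21 gained it and 2 turned with a call. Those 2 were Nfkb2 in marrow minus spleen at 7 d, which went from -0.18 to 0.68 with the probe set of highest variance and to 0.25 with the mean of probe sets. Fitted on the compared groups alone, the counts over all genes went from 821 to 176 (liver at 4 h) and from 938 to 508 (spleen at 4 h). In liver at 7 d the count went from 136 to 244. The called members in spleen at 4 h went from 5 to 3 in that fit. In liver at 4 h it lost the calls of Ier3 (adjusted p = 0.0672) and Icam1 (0.0700). Array weights gave 406 genes in liver at 7 d, 86 in place of 49 for 7 d minus 4 h in liver, and 8 called members in place of 5 in marrow. The called members in liver at 7 d went from 1 to 2 (Nfkbiz added) with a low-value filter, a further quantile normalization, array weights or the replicate block. For 7 d minus 4 h in liver they went from 2 to 1 with an offset of 16, with a trended robust fit or with the mean of probe sets, and to 0 with the replicate block. The block, which pairs same-numbered arrays, gave 471 genes in liver at 4 h. In the other sets same-numbered arrays correlated from -0.381 to 0.543 (spleen at 4 h) and from -0.162 to 0.085 (liver at 7 d). The range was -0.0881 to 0.164 in marrow and -0.157 to 0.238 in spleen at 7 d. Correlations had both signs in each of these sets, and the labels do not say whether the numbers link arrays. With the block Zfp36 was no longer called in marrow (adjusted p = 0.0619). A further quantile normalization moved the share of called genes that were higher from 71.9% to 57.8% in liver at 4 h, from 64.2% to 52.5% in spleen at 4 h and from 36.7% to 48.9% for 7 d minus 4 h in liver.

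Leaving out 1 array at a time gave 466 to 1090 genes in liver at 4 h (6 to 6 members), 636 to 1027 in spleen at 4 h (3 to 5), 36 to 250 in liver at 7 d (1 to 2), 2871 to 3840 in marrow (4 to 8) and 10656 to 12435 in spleen at 7 d (8 to 8). The differences gave 4 to 111 genes for time in liver (0 to 2 members), 8366 to 10480 for time in spleen (9 to 9), 214 to 366 (0 to 0) and 9595 to 11355 (8 to 8) for spleen minus liver at 4 h and 7 d, and 7276 to 9454 for marrow minus spleen (8 to 8). The count in liver at 4 h moved most without vehicle replicate 1 (484) or 2BE replicate 4 (466). In liver at 7 d it was 36, 46 and 75 without vehicle replicate 2, 3 and 4, and 76, 58 and 81 without 2BE replicate 2, 4 and 5, against 250 without 2BE replicate 1. The time difference in liver had 17 genes without vehicle replicate 1 of 4 h, 111, 25 and 18 without 2BE replicate 1, 2 and 4 of 4 h, 22, 21, 10 and 6 without vehicle replicate 1 to 4 of 7 d, and 8 and 4 without 2BE replicate 3 and 4 of 7 d. Spleen minus liver at 4 h had 214 without the liver's vehicle replicate 1. Spleen at 4 h had 3 members called without vehicle replicate 1 or 2BE replicate 1 or 2, and marrow 8 without 2BE replicate 5, 1 of them higher. The causes were not tested. With 3 to 5 arrays a group, and low intensities for Relb and Tnfaip3 in liver, small changes there could be missed.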
